A study of Mus musculus with 4 samples.

Results

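The KDEL receptors, the COPI coat and their cargo adaptors were followed as 10 genes in primary mouse vascular smooth muscle cells (VSMCs) depleted of *Mettl14*: the receptors *Kdelr1*, *Kdelr2* and *Kdelr3*, the coatomer subunits *Copa*, *Copb1*, *Copb2* and *Cope*, and the adaptors *Tmed2*, *Tmed10* and *Lman1*. They are 10 of the 48587 genes listed in the count table, and all 10 passed the filter on low counts that left 18916 genes for testing. *Kdelr2* was picked because it was lower with the *Mettl14* hairpin in these same libraries, as 1 of 9 genes called by a fit that pairs the libraries by letter. Its difference between the hairpins is therefore given as a description, with no test. The other 9 genes, and the gene lists used below, were picked for their function with earlier results of these data known.

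Each library came from VSMCs of the descending aorta of C57BL/6J mice of 8 to 12 weeks, grown out of vessels freed of adventitia and endothelium, passaged and transduced with a lentivirus. The shCTR virus carried a hairpin against a plant microRNA sequence, and the sh*Mettl14* virus carried a hairpin against *Mettl14*, which encodes a subunit of the complex that writes *N*6-methyladenosine (m6A) on mRNA. There were 2 libraries per hairpin, with the letters A and B, for which no source names a common culture or animal, so that p-values measure the spread between these libraries only. Since the labels give a single *Mettl14* hairpin group, loss of *Mettl14* and any other effect of that hairpin cannot be told apart. Pairs of values below stand in the order letter A, letter B.

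Totals ranged from 114343653 to 124815868 counts, and the members had between 8910 and 70069 counts per library. The counting error of the lowest of these is 1.06%, which is small beside the spread between libraries. *Mettl14* was at 18.05 and 19.9 CPM (read counts scaled to the normalized library total) with shCTR and at 4.60 and 4.37 CPM with sh*Mettl14*, and its mean with sh*Mettl14* was 23.6% of that with shCTR. Smooth muscle markers were abundant in sum, with 8601 and 8761 CPM with shCTR and 6402 and 7702 CPM with sh*Mettl14*. *Acta2*, smooth muscle actin, was at 2073 CPM or more in every library. *Myh11* was at 338 and 101 CPM with shCTR and at 233 and 75.0 CPM with sh*Mettl14*, and *Des* stayed at 2.56 CPM or less. All 6 endothelial markers were also detected, with summed levels of 1827 and 3902 CPM with shCTR and 1715 and 2398 CPM with sh*Mettl14*. *Pecam1*, *Cdh5* and *Emcn* gave most of this sum, whereas *Kdr* stayed at 9.75 CPM or less and *Vwf* at 18.9 CPM or less. The 6 leukocyte markers summed to 12.1 CPM or less, and *Itgam* and *Cd3e* were at or near 0. The 6 fibroblast and adventitial markers summed to 255 and 206 CPM with shCTR and to 258 and 291 CPM with sh*Mettl14*. *Ly6a* gave most of that sum. Fewer cells of a type and less RNA per cell cannot be told apart in these bulk libraries.

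Proteins that belong in the lumen of the endoplasmic reticulum (ER), such as chaperones and protein disulfide isomerases, end in the tetrapeptide KDEL or a close variant. When they leak forward to the Golgi, KDEL receptors bind this tail in the acidic lumen of the Golgi and return them to the ER in vesicles coated by COPI, the coatomer, which the GTPase Arf1 recruits to the membrane. p24 proteins such as *Tmed2* and *Tmed10* and the lectin *Lman1* cycle between the same compartments, carrying cargo forward in COPII vesicles and returning by COPI through signals in their cytosolic tails. Synthetic VSMCs secrete much collagen and other matrix, and so rely heavily on this exchange.

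*Kdelr2* (ENSMUSG00000079111, plus strand of chromosome 5 from 143403838 to 143421901, GRCm38) encodes 1 of the 3 KDEL receptors. It was at 208 and 138 CPM with shCTR and at 75.0 and 68.9 CPM with sh*Mettl14*. The groups did not overlap, and the sh*Mettl14* libraries lay closer to each other than the shCTR libraries did. The mean was 173 ± 49.4 CPM with shCTR and 72.0 ± 4.33 CPM with sh*Mettl14* (SD, n = 2 libraries each), which is 41.6% of the shCTR level. The log2 fold change was −1.27 (standard error, SE, 0.27), and the log2 ratio of sh*Mettl14* to shCTR came to −1.47 in letter A and −1.0 in letter B. Of all genes tested, 2.34% had a log2 fold change under −1, and 13.3% had both sh*Mettl14* libraries below both shCTR libraries. Among the 9098 genes with a mean of at least 10 CPM, *Kdelr2* ranked 9 by log2 fold change counted from the lowest, 6 by the ratio within A and 71 by the ratio within B. Since the gene was chosen from this contrast, these ranks say nothing beyond the choice. The summed endothelial markers were at 1827 CPM with shCTR and 1715 CPM with sh*Mettl14* in letter A and at 3902 and 2398 CPM in letter B, and their part in the *Kdelr2* values was not tested. Leaving out 1 library at a time moved the log2 fold change of *Kdelr2* between −1.54 and −0.94.

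**Figure D1:**
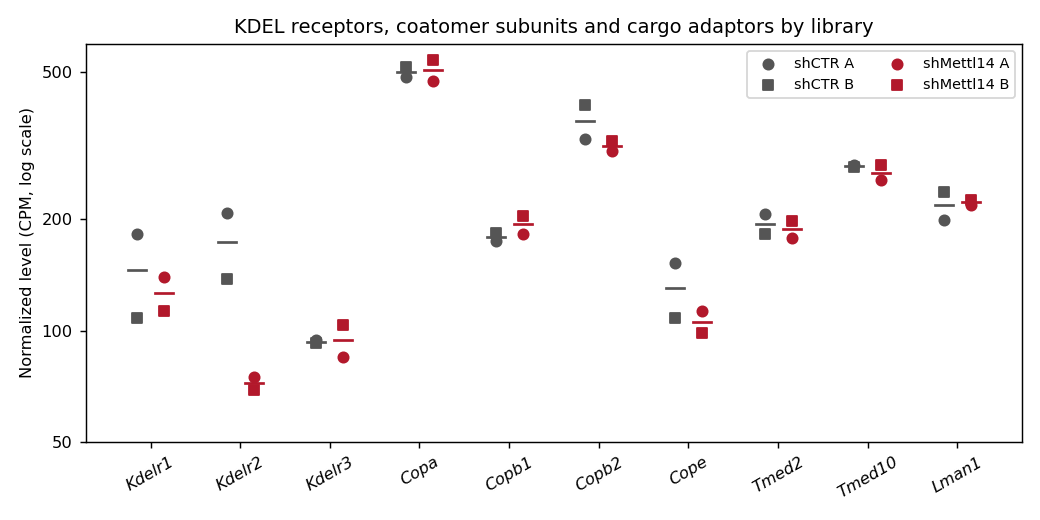
Normalized level in CPM on a log axis for each of the 10 genes, with shCTR in gray and shMettl14 in red, letter A as circles, letter B as squares and a bar at the mean of 2 libraries; levels can be compared within a gene only, since they are not divided by gene length. *Kdelr2* lies between 68.9 and 75.0 CPM with shMettl14 and between 138 and 208 CPM with shCTR, whereas the groups of 8 other genes overlap and those of *Copb2* are separated by 325 and 330 CPM.

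The 3′ UTR of *Kdelr2* (1066 bases, transcript ENSMUST00000110731.3 of GENCODE M21) holds GTGTTAA at 2 places, shown here because earlier results on these same libraries had picked it out as a word whose carriers were low with sh*Mettl14*. It is thus not independent of the mRNA values, and no test was made. The copies are printed 5′ to 3′ on the plus strand of chromosome 5 with the word in capitals. The proximal copy spans 143421080 to 143421086 and begins 244 bases after the stop codon, and the distal copy spans 143421868 to 143421874 and begins 1032 bases after it.
Kdelr2 proximal: aacttaatgctGTGTTAAtaaattcagta
Kdelr2 distal: tgacctatattGTGTTAAcatcctaaata
The other 9 members held 0 copies in their longest annotated 3′ UTR, which ranged from 132 bases for *Cope* to 3094 bases for *Lman1*. Of 14147 tested genes with a 3′ UTR of at least 50 bases, 11.3% held at least 1 copy. Among 72 other genes of the early secretory pathway, from the lists described further on, *Copg1*, *Tmed5* and *Fkbp9* held 1 copy each, with log2 fold changes of −0.65, −0.04 and −0.22. A match is a description of the letters and not of a binding site.

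The other receptors bind the same kind of tail, and for both of them the groups overlapped. *Kdelr1* (ENSMUSG00000002778, chromosome 7 from 45872772 to 45883732) was at 183 and 108 CPM with shCTR and at 140 and 113 CPM with sh*Mettl14*. The groups overlapped, and in both hairpins letter A was the higher. Its log2 fold change was −0.20 (SE 0.32, edgeR unadjusted p = 0.55), with ratios of opposite sign within A (−0.39) and B (0.06). *Kdelr1* was at 0.23 when shCTR A was left out and at −0.54 when shCTR B was. *Kdelr3* (ENSMUSG00000010830, chromosome 15 from 79516411 to 79527739) was at 94.3 and 92.5 CPM with shCTR and at 84.6 and 103 CPM with sh*Mettl14*. These libraries overlapped as well, with a log2 fold change of 0.01 (SE 0.20, edgeR unadjusted p = 0.96) and ratios of −0.16 within A and 0.16 within B. The difference of *Kdelr2* from its paralogs was not tested, because *Kdelr2* was chosen for it.

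The 3 receptor genes are similar enough to ask whether reads could be exchanged between them. The coding sequence of *Kdelr2* was 76.3% identical to that of *Kdelr1* and 72.2% identical to that of *Kdelr3*, and the longest run of bases shared exactly was 26 with *Kdelr1* and 20 with *Kdelr3*. *Kdelr1* and *Kdelr3* were 71.9% identical, with a longest shared run of 22 bases. No exon base of *Kdelr2* or *Kdelr1* overlaps another annotated gene, and 0.283% of the exon bases of *Kdelr3* overlap *Ddx17* on the other strand. How the authors treated reads that map to more than 1 place is not given in the sources used here.

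Levels were compared between the receptors only after division by exon length (CPM per kb of annotated exons). With shCTR, *Kdelr2* stood highest of the receptors, at 114 and 75.6 CPM per kb. *Kdelr1* was at 97.7 and 57.9 CPM per kb there, and *Kdelr3* at 66.8 and 65.6. With sh*Mettl14*, *Kdelr2* was the lowest of the 3, at 41.0 and 37.7 CPM per kb. *Kdelr1* was at 74.7 and 60.3 CPM per kb in these libraries, and *Kdelr3* at 60.0 and 73.3, so that the order of *Kdelr1* and *Kdelr3* differed between the letters under both hairpins. As a share of the 3 receptors per kb, *Kdelr2* made up 40.9% and 38.0% with shCTR and 23.3% and 21.99% with sh*Mettl14*. Its ratio to *Kdelr1* in CPM was 1.14 and 1.28 with shCTR and 0.536 and 0.609 with sh*Mettl14*. These shares follow from the *Kdelr2* values that chose the gene. The sum of *Kdelr1* and *Kdelr3*, which the choice did not use, was 277 and 201 CPM with shCTR and 225 and 217 CPM with sh*Mettl14*, and the groups overlapped. The sum of all 3 receptors was 485 and 339 CPM with shCTR and 300 and 285 CPM with sh*Mettl14*. It was lower in both sh*Mettl14* libraries than in either shCTR library, whereas the summed level of the other receptors was not. Of all genes tested, 13.3% were lower in this way. The sum of all 3 includes *Kdelr2*, which was chosen because it was lower, so its separation is no result about the receptors as a set.

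**Figure D2:**
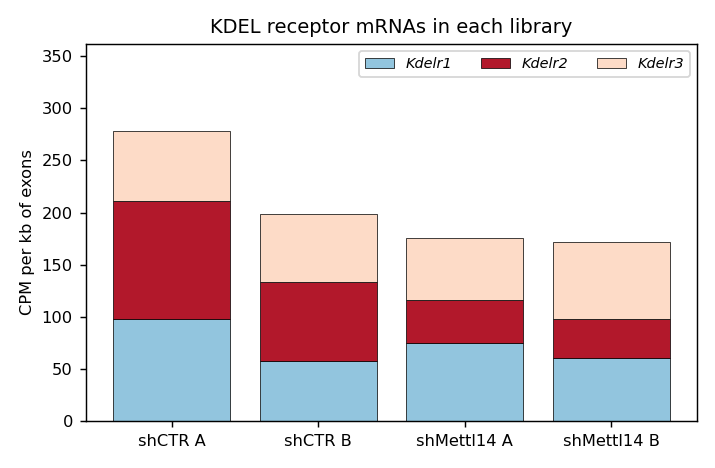
CPM per kb of annotated exons for the 3 KDEL receptor genes, stacked, with 1 bar per library. The *Kdelr2* segment spans 114 and 75.6 CPM per kb in shCTR A and B and 41.0 and 37.7 in shMettl14 A and B.

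The coatomer is assembled from 7 kinds of subunit, and 4 of its genes were members. *Copa* (ENSMUSG00000026553, chromosome 1 from 172082529 to 172122330) encodes the α subunit, which together with β′-COP recognizes the dilysine tails of returning membrane proteins. It was at 485 and 516 CPM with shCTR and at 474 and 539 CPM with sh*Mettl14*, so that the shCTR libraries lay between the sh*Mettl14* libraries. Its log2 fold change was 0.02 (SE 0.19, edgeR unadjusted p = 0.93), and 9.58% of its exon bases overlap *Gm37756* and *Ncstn* on the other strand. *Copb1*, the β subunit (ENSMUSG00000030754, chromosome 7 from 114215559 to 114254711), was at 175 and 184 CPM with shCTR and at 183 and 204 CPM with sh*Mettl14*. It was higher within both letters, by 0.06 in A and 0.15 in B, but the groups overlapped and the log2 fold change of 0.11 was smaller than its standard error of 0.19 (edgeR unadjusted p = 0.59).

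*Copb2* encodes the β′ subunit (ENSMUSG00000032458, chromosome 9 from 98563721 to 98588382). It was at 330 and 407 CPM with shCTR and at 306 and 325 CPM with sh*Mettl14*. The groups did not overlap, which held for 1 of the 9 members other than *Kdelr2* and for 13.3% of all genes tested in this direction, and the nearest libraries differed by less than the shCTR libraries did from each other. The log2 fold change was −0.22 (SE 0.21, edgeR unadjusted p = 0.33), with ratios of −0.11 within A and −0.32 within B. *Cope*, the ε subunit (ENSMUSG00000055681, chromosome 8 from 70302518 to 70312993), was at 153 and 108 CPM with shCTR and at 113 and 98.6 CPM with sh*Mettl14*. Like *Kdelr1*, it was higher in letter A than in B under both hairpins, and the groups overlapped. Its log2 fold change was −0.30 (SE 0.25, edgeR unadjusted p = 0.27), with −0.44 within A and −0.14 within B.

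The 3 cargo adaptors lay close to their shCTR levels. *Tmed10* (ENSMUSG00000021248, chromosome 12 from 85340614 to 85374847), the p24 protein of the δ family, was at 281 and 277 CPM with shCTR and at 256 and 280 CPM with sh*Mettl14*. Its log2 fold change was −0.06 (SE 0.19, edgeR unadjusted p = 0.77). The annotation lists a pseudogene, *Tmed10-ps*, with which reads could be shared, and 1.22% of the *Tmed10* exon bases overlap *Gm47819* on the other strand. *Tmed2* (ENSMUSG00000029390, chromosome 5 from 124540695 to 124550506), its partner of the β family, was at 207 and 183 CPM with shCTR and at 178 and 198 CPM with sh*Mettl14*, giving a log2 fold change of −0.05 (SE 0.20, edgeR unadjusted p = 0.82). *Lman1* (ENSMUSG00000041891, chromosome 18 from 65980738 to 66022580), the mannose-binding receptor ERGIC-53 that carries coagulation factors and other glycoproteins out of the ER, was at 199 and 237 CPM with shCTR and at 219 and 226 CPM with sh*Mettl14*. Both sh*Mettl14* libraries lay within the range of the shCTR libraries, and the log2 fold change was 0.03 (SE 0.20, edgeR unadjusted p = 0.89). In all 3 adaptors the groups overlapped and the ratios had opposite signs within the letters.

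Set side by side, 0 of the 9 members other than *Kdelr2* had an unadjusted p under 0.05 in either direction by edgeR's quasi-likelihood test, where 1.01% of all genes tested were lower and 0.656% higher at that level. None of the 10 was called at an adjusted p under 0.05, where 0% of all genes tested were called. *Mettl14*, the target of the hairpin, was not called there either (log2 fold change −2.08, edgeR unadjusted p = 0.00039). The lack of calls after adjustment thus says little about the members. Before adjustment 315 genes passed, and DESeq2 called 4 genes and 0 members at an adjusted p under 0.05. The same 9 genes had log2 fold changes from −0.30 to 0.11 with a median of −0.05, against a median of 0.01 over all genes tested, 90% of which lay between −0.70 and 0.94. Their medians within the letters were −0.14 in A and 0.06 in B. Of the 9, *Copb2* and *Cope* were lower within both letters, where 27.6% of all genes were, and *Copb1* was higher within both, where 30% of all genes were. Neither share of the 9 exceeds the background. With SEs of 0.19 to 0.32, a p that misses the threshold does not show that these genes kept their level. In the fit that pairs the libraries by letter, 0 of the 9 were called at an adjusted p under 0.05 (background 0.0476%, all lower). There 0 of the 9 were lower and 0 higher at an unadjusted p under 0.05, where 5.55% of all genes were lower and 4.72% higher.

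**Figure D3:**
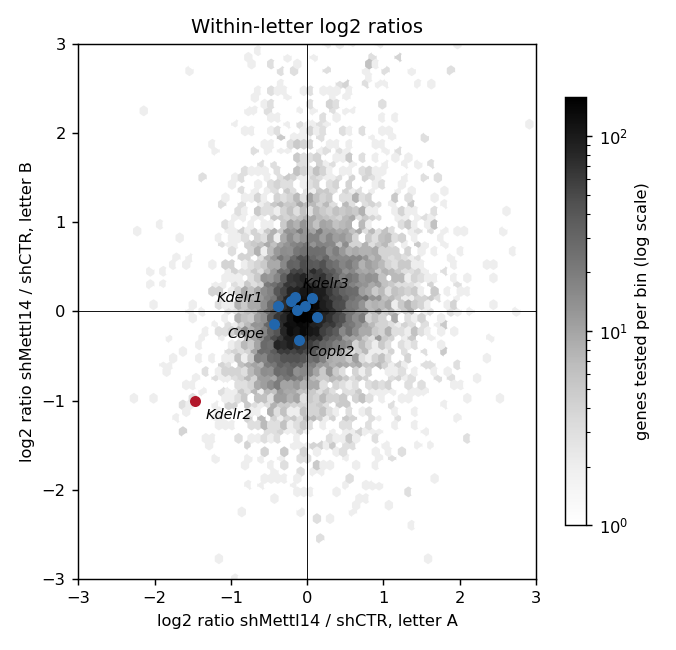
Log2 ratio of shMettl14 to shCTR within letter A (x axis) and within letter B (y axis), with genes tested binned in gray on a log scale, *Kdelr2* in red and the 9 other members in blue; 311 genes with a ratio beyond 3 in either direction lie outside the axes. *Kdelr2* sits at −1.47 and −1.0, and the other members sit between −0.44 and 0.13 in A and between −0.32 and 0.16 in B.

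For 6 of the 10 members, *Kdelr1*, *Kdelr3*, *Copa*, *Copb1*, *Cope* and *Lman1*, the mean difference between the letters was larger than that between the hairpins, as it was for 64.2% of all genes tested. The median size of the letter difference was 0.14 over the 10 members and 0.39 over all genes on the log2 scale, and that of the hairpin difference 0.08 and 0.24. Over the 9 members other than *Kdelr2* these medians were 0.14 for the letters and 0.06 for the hairpins. *Kdelr1* varied most by letter, at 0.76 lower in B than in A with shCTR and 0.31 lower with sh*Mettl14*. *Kdelr2* was also lower in letter B, by 0.59 with shCTR and by 0.12 with sh*Mettl14*, each less than the difference between the hairpins in the same letter. Since *Kdelr2* was chosen for its difference between the hairpins, that comparison says nothing beyond the choice.

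The promoters of the members were searched for sequence elements of the ER stress response, because KDEL receptors and coat genes serve the same compartment as the chaperones it induces. RefSeq promoters on GRCm38.p6, from 250 bases before to 50 after a start site, were found for 7 of the 10 members: *Kdelr1*, *Kdelr3*, *Copa*, *Copb1*, *Copb2*, *Cope* and *Tmed10*. The core of the unfolded protein response element, TGACGTGG, searched on both strands, was present in those of *Kdelr3*, *Copb1* and *Copb2*. Its first letters are also those of the cAMP response element. Of 32817 promoters of this length, 0.676% held it. Outside the members it was also in promoters of *Arf1*, *Gbf1*, *Sec23a*, *Sec24d*, *Stx5a* and *Txndc5*, from the pathway lists described further on. The matches of the 3 members lie on the strand opposite to the gene. They are printed here along the gene strand, with the reverse complement of the word in capitals, as a feature that these 3 members share.
Kdelr3 at chr15:79516378-79516385: ggccgccccgCCACGTCAccgcgcggcc
Copb1 at chr7:114254701-114254708: ccgcccccttCCACGTCAgccaaggact
Copb2 at chr9:98563724-98563731: cccggaagttCCACGTCAgtgggttggc
These words begin 30, 28 and 7 bases before the RefSeq start site of *Kdelr3*, *Copb1* and *Copb2*. By the GENCODE gene places given above, the words of *Copb1* and *Copb2* lie just inside the gene, and that of *Kdelr3* lies before it. The 3 genes had log2 fold changes of 0.01, 0.11 and −0.22. The ER stress response element (ERSE, a CCAAT and a CCACG box with a spacer between them, both strands) was in 0 of the 7 promoters and in 0.119% of all promoters, and the amino acid response element core TGATGNAA was in that of *Kdelr1*, 149 bases before the start, and in 3.97% of all promoters.

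The remaining coatomer genes were *Arcn1*, *Copg1*, *Copg2*, *Copz1* and *Copz2*, which encode the δ, γ and ζ subunits. At an unadjusted p under 0.05 by edgeR, 2 of the 5 were lower and 0 higher, where 1.01% and 0.656% of all genes tested were. *Copg1*, the γ1 subunit, was at 315 and 334 CPM with shCTR and at 198 and 214 CPM with sh*Mettl14*. The groups were well apart, with a log2 fold change of −0.65 (SE 0.19, edgeR unadjusted p = 0.017, adjusted p = 1.0) and like ratios within A (−0.67) and B (−0.64). *Copz2*, the ζ2 subunit, was at 93.7 and 109 CPM with shCTR and at 63.3 and 70.7 CPM with sh*Mettl14*, again without overlap. Its log2 fold change was −0.60 (SE 0.20, edgeR unadjusted p = 0.031, adjusted p = 1.0), with −0.56 within A and −0.63 within B. For their paralogs the groups overlapped: *Copg2* was at 55.2 and 47.6 CPM with shCTR and at 54.7 and 66.9 CPM with sh*Mettl14* (log2 fold change 0.24, SE 0.22), and *Copz1* was at 115 and 96.3 CPM and at 79.1 and 120 CPM (−0.09, SE 0.27). Within letter A the ratio of *Copz1* was −0.54, near the −0.56 of *Copz2*, and within B it was 0.31. The difference between paralogs was not tested. *Arcn1*, the δ subunit, was at −0.15 (SE 0.23). Neither *Copg1* nor *Copz2* passed adjustment over all genes tested.

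**Figure D4:**
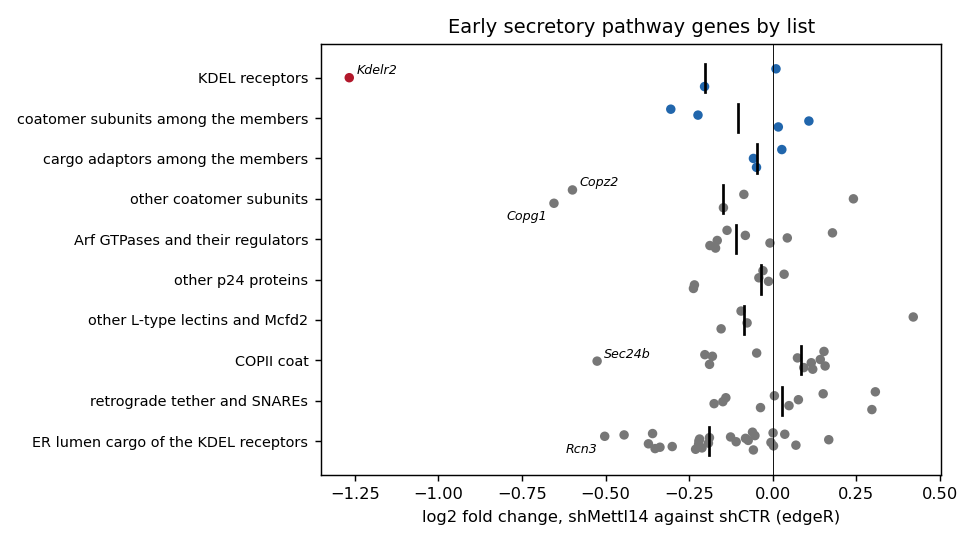
Log2 fold change of shMettl14 against shCTR (x axis) for each gene of the lists named at the left, with *Kdelr2* in red, the other members in blue, further genes of the pathway in gray and a black bar at the median of each list. *Kdelr2* lies at −1.27, and the next lowest gene on the lists plotted is *Copg1* at −0.65.

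The other steps of the ER to Golgi exchange were read from the same fit. Of 8 genes for Arf GTPases, their exchange factor and their GTPase-activating proteins, 0 had an unadjusted p under 0.05, and the log2 fold changes ran from −0.19 for *Arf3* to 0.18 for *Arfgap2*. The same was true of 6 other p24 genes, from −0.24 for *Tmed1* to 0.03 for *Tmed7*, and of the cargo lectins with the *Lman1* partner *Mcfd2*, from −0.15 for *Lman2* to 0.42 for the barely expressed *Lman1l* (0.27 to 0.91 CPM). *Mcfd2* itself was at −0.09 (SE 0.29). Of 12 genes for the COPII coat, which buds cargo forward from the ER, 0 passed, and values ran from −0.53 for *Sec24b* to 0.16 for *Sec23a*. *Sec24b* rested on 1 library, with 179 CPM in shCTR B against 85.7 to 96.1 CPM in the other libraries. Of 10 genes for the ER tether and for SNAREs of transport between the ER and the Golgi, 0 passed, from −0.17 for *Stx18* to 0.31 for *Gosr2*.

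A list of 27 ER lumen proteins, taken from general knowledge as cargo of the receptors, had a median log2 fold change of −0.19, with −0.25 within A and −0.01 within B. The KDEL-like tails of these proteins were not checked. After scaling, all genes tested summed to 1020240 and 1058470 CPM with shCTR and to 965168 and 959435 CPM with sh*Mettl14*. The part of this difference in the values of the cargo genes was not tested. Negative log2 fold changes were found for 22 of the 27 and positive ones for 5. Of all 18916 genes tested, 9230 had negative ones. In 14 of the 27 both within-letter ratios were negative, where 27.6% of all genes tested were. By edgeR 1 of the 27 was lower at an unadjusted p under 0.05 and 0 were higher (background 1.01% and 0.656%). This was *Rcn3*, a reticulocalbin that binds calcium and serves collagen secretion. It was at 270 and 283 CPM with shCTR and at 202 and 189 CPM with sh*Mettl14*, giving a log2 fold change of −0.50 (SE 0.18, edgeR unadjusted p = 0.042, adjusted p = 1.0). The highest value was that of *Fkbp14*, 0.17 (SE 0.19). In 10 of the 27 both sh*Mettl14* libraries were below both shCTR libraries, where 13.3% of all genes tested were, and these included the lectin chaperone *Calr* at 1379 and 1277 CPM with shCTR and at 1045 and 1037 CPM with sh*Mettl14*. *Hspa5*, the chaperone BiP and a sentinel of ER stress, was at 1062 and 864 CPM with shCTR and at 876 and 974 CPM with sh*Mettl14* (log2 fold change −0.06, SE 0.21), and *Hsp90b1* was at −0.23 (SE 0.23). The ER stress response element was in 5 of the 22 promoters found for these 27 genes. The smooth muscle marker *Acta2* was also lower, at 3547 and 2799 CPM with shCTR and 2171 and 2073 CPM with sh*Mettl14* (log2 fold change −0.58, SE 0.21, edgeR unadjusted p = 0.038, adjusted p = 1.0), as were, with *Acta2* included, 7 of the 8 smooth muscle markers (median −0.41, summed levels 8601 and 8761 CPM against 6402 and 7702 CPM) and all 6 endothelial markers (median −0.23) by the sign of the log2 fold change. By this sign, as above, 9230 of the 18916 genes tested were lower. The part of the smooth muscle and endothelial markers in the values of the cargo genes was not tested.

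The genes whose pattern was most like that of *Kdelr2* were looked up among the other 9097 genes of at least 10 CPM, by the Euclidean distance between 4 log2 CPM values centered on the mean of each letter. The nearest were *1810058I24Rik*, at a distance of 0.113, *Dmwd*, at 0.148, and *Hspb7*, at 0.177. *1810058I24Rik* was at 50.9 and 36.3 CPM with shCTR and at 20.2 and 19.1 CPM with sh*Mettl14*, with ratios of −1.33 within A and −0.92 within B. *Dmwd* had ratios of −1.60 and −1.17, and *Hspb7*, a small heat shock protein of muscle, −1.23 and −0.94. With 4 libraries and the letters centered, this distance compares only a pair of ratios.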

How the data were processed

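The authors prepared strand-specific poly-A libraries of transduced VSMCs, mapped read pairs to mm10 (GRCm38.p6) by STAR and assigned them to genes by featureCounts. The deposited table holds the resulting raw counts, for 2 shCTR and 2 sh*Mettl14* libraries. Tool versions and the strand setting are not given in the sources used here. Counts were normalized by TMM, filtered by filterByExpr and tested with the robust quasi-likelihood fit of edgeR 4.0.16 (R 4.3.3) without a block, with Benjamini-Hochberg adjustment over 18916 genes. Each standard error is the size of the log2 fold change over the root of its F statistic. Within-letter ratios used log2 CPM with a prior count of 2. Exon lengths, 3′ UTRs and gene places came from GENCODE M21 on GRCm38, promoters from RefSeq. Lengths join the exons of all transcripts, so genes with many long isoforms have understated levels per kb. Members were matched by symbol. The ER lumen cargo list was taken from general knowledge, and its tails were not checked.

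Genes named were *Mettl14*, the members, list genes with an unadjusted p under 0.05, the extremes of each list, defining markers and the 3 genes most like *Kdelr2*. *Hspa5*, *Hsp90b1*, *Calr*, *Arcn1*, *Copz1*, *Mcfd2*, *Tmed5* and *Fkbp9* were named outside this rule, after their values were seen. *Arf1*, *Gbf1*, *Sec24d*, *Stx5a* and *Txndc5* were named for a promoter match. The members and lists were chosen with earlier results of these data known. The letters are not stated to pair libraries. Alternatives were DESeq2 1.42.0, upper-quartile and RLE scaling, a fit without filtering, a minimum of 10 counts per library, a replicate block and leaving out each library. The differential tests were tested on simulated data. The smallest two-sided p of an exact permutation test of 2 libraries against 2 is 0.333. Python 3.11.15 did the remaining steps.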

Additional observations from a re-analysis of the deposited data

How the results depend on the processing

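Of the 10 members, *Kdelr2*, *Copb1*, *Copb2* and *Cope* kept their direction under all 10 alternatives. The others reversed only where 1 library was left out: without shCTR A, *Kdelr1* (0.23), *Copa* (−0.023), *Tmed2* (0.050) and *Lman1* (−0.088); without shCTR B, *Kdelr3* (−0.0069); without sh*Mettl14* A, *Tmed2* (0.028) and *Tmed10* (0.0094); and without sh*Mettl14* B, *Kdelr3* (−0.14) and *Copa* (−0.073). With 1 library left out, the log2 fold change ranged from −0.54 to 0.23 for *Kdelr1*, −1.54 to −0.94 for *Kdelr2*, −0.14 to 0.15 for *Kdelr3*, −0.073 to 0.11 for *Copa*, 0.032 to 0.19 for *Copb1*, −0.36 to −0.066 for *Copb2*, −0.53 to −0.032 for *Cope*, −0.14 to 0.050 for *Tmed2*, −0.12 to 0.0094 for *Tmed10* and −0.088 to 0.16 for *Lman1*. The median log2 fold change of the members lay between −0.12 and 0.02 with 1 library left out. Of the 9 members other than *Kdelr2*, 0 had an unadjusted p under 0.05 in either direction under the 10 alternatives. The direction of *Kdelr2* was fixed by its choice. Across all genes, an adjusted p under 0.05 was reached by 0 genes in the main test, 4 with DESeq2 and 9 with the replicate block (0.0476% of genes tested), the fit from which *Kdelr2* was chosen. The block had 1941 genes at an unadjusted p under 0.05 against 315, and it called no other member at that level. Deviations of libraries of the same letter from their hairpin mean correlated at 0.578 across genes. With 2 libraries per hairpin the deviations in A and B mirror each other, so this is a single value for both letters. The common dispersion, a measure of the spread between libraries, was 0.178 without the block and 0.0418 with it. Libraries of a letter thus varied together, and the main test did not use this. No source says what the libraries of a letter share. Leaving out 1 library gave 78 to 1399 genes at an unadjusted p under 0.05 (1399 without shCTR A, 828 without shCTR B, 114 without sh*Mettl14* A, 78 without sh*Mettl14* B) and 0 to 1 at an adjusted p under 0.05; the lone library is then assumed to vary like the other group, and the cause of the spread was not tested.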
